A study of Homo sapiens with 9 samples.

Results

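Loss of TTC33 mRNA was examined by setting the 3 TTC33 knock-down libraries against the 3 control libraries, 6 of the 9 libraries of the series. The cells were HEK293 Flp-In T-REx, an established line from human embryonic kidney that holds an integration site for a transgene under tetracycline control. The knock-down cells carry a microRNA directed against TTC33 under a tetracycline-inducible promoter, and the control cells express no microRNA. Tetracycline was given to both groups, at 100 ng/ml over 3 days. The third group of the series, 3 libraries with a microRNA against CCDC97, entered the fit to share its estimate of spread and served where a difference between the knock-downs was tested. The labels do not say whether a line is 1 clone or a pool, so a property of the line, expression of a microRNA as such and loss of TTC33 cannot be told apart. They also do not say that replicates came from separate cultures. The p-values therefore rest on the spread among libraries, and this spread may be technical. In bulk RNA a change in the share of a kind of cell and a change in RNA per cell cannot be told apart.

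TTC33 is a tetratricopeptide repeat protein. It was placed by the study in an assembly with PHF5A, a subunit of the SF3B complex that recognises branch points in splicing, and WDR61, a subunit of the PAF1 complex of transcription elongation and of the SKI complex of RNA decay. An engineered microRNA is loaded into an Argonaute protein and lowers the mRNA it pairs with. Pairing of its seed alone can lower other mRNAs too, mostly through sites in 3′ UTRs.

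The 6 libraries held 25846816 to 36110891 counts assigned to genes, and 18299 genes were tested. Levels of single genes are given as CPM (counts per 1e6 scaled library counts), and sums over marker lists as counts per 1e6 unscaled gene counts. All 11 genes of the HEK293 identity list were measured, with a sum of 1350 to 1371 in controls and 1530 to 1625 in knock-down libraries. Marker lists of immune cells, fibroblasts and endothelial cells summed to 1.502 to 1.84, 14.6 to 15.4 and 19.7 to 21.2 in controls, and to 1.97 to 2.74, 14.2 to 17.7 and 17.4 to 28.7 in the knock-down. Of 13 immune markers 3 were at 0 in all 6 libraries. TTC33 knock-down replicate 1 stood apart from replicates 2 and 3. In replicates 2 and 3 the difference from control rose with the GC content of the gene, from medians of -0.43 and -0.47 (log2) in the lowest decile of GC content to 0.38 and 0.41 in the highest. Replicate 1 had medians of 0.03 and -0.08 in the same deciles. Counts corrected for the trend on GC content and transcript length, called corrected from here on, are therefore given beside those of each gene list. Leaving out each of the 9 libraries in turn gave 9 further fits. The range of a list's counts over them is given as its leave-one-out range, with counts in brackets in the order of those they follow, and the number of fits in which a gene kept its call is given where it is below 9. The top of each such range is the fit without replicate 1, except for higher heat shock genes, of which there were 13 in that fit. Over all genes tested, 15.4% were higher and 13.5% lower after the correction, and 17.2% and 17.7% in the fit without replicate 1. The corrected counts and the tops of the ranges are to be read against these shares. Whether GC content, library or RNA quality had a part in a given change was not tested.

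**Figure D1:**
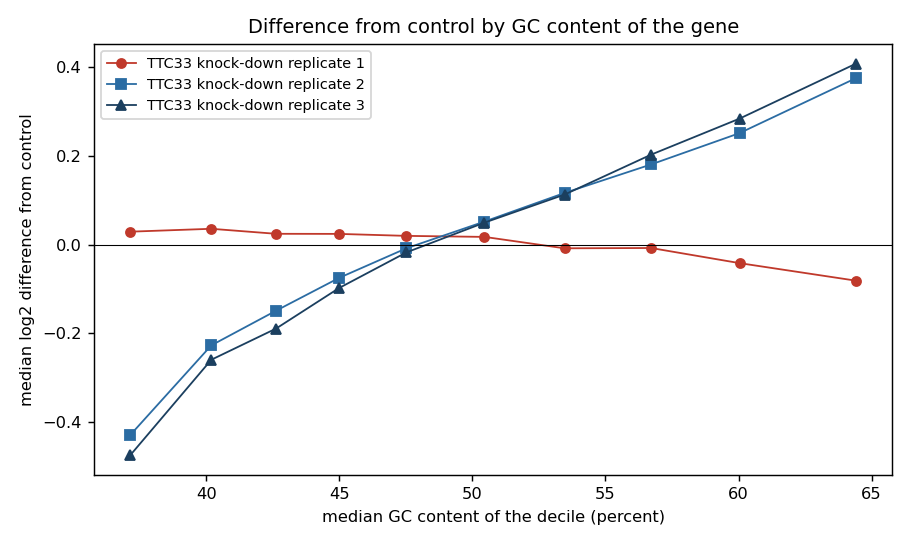
Median log2 difference from the mean of the controls (y axis) against the median GC content in percent of each decile of genes (x axis), with 1 line per TTC33 knock-down library. Replicates 2 and 3 run from below 0 to above 0 together, while replicate 1 stays between -0.08 and 0.04.

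TTC33 itself stood at 37.7, 37.1 and 38.6 CPM in the controls and at 9.67, 6.41 and 6.16 CPM in the knock-down libraries. The gene lies on chromosome 5, from 40512333 to 40755975 on the minus strand of GRCh38, with 5 exons in the annotated coding transcript. All knock-down libraries were thus well below all controls, with replicate 1 the least lowered. This is a log2 fold change of -2.34 ± 0.21 (SE; edgeR quasi-likelihood test, adjusted p = 0.000106) and left 19.7% of the control level. It ranged from -2.59 to -2.24 in fits that left out a library and was -1.94 after the correction. Of its partners PHF5A had a log2 fold change of 0.04 ± 0.07 (adjusted p = 0.729) and WDR61 -0.11 ± 0.09 (adjusted p = 0.42), so neither passed. CCDC97 passed, at 65.1, 81.3 and 95.8 CPM against 59.5 to 60.6 CPM (0.43 ± 0.12; adjusted p = 0.0371), but kept its call in only 2 of the 9 fits with a library removed, and had 0.24 after the correction.

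Across the transcriptome 2186 genes passed an adjusted p of 0.05, which is 11.9% of those tested. Of these 1190 were higher (6.5%) and 996 lower (5.44%) in the knock-down. In 2181 of them the 3 knock-down libraries did not overlap the 3 controls. Selection by a small p makes this likely, so it adds no support. Groups also lay apart in genes that did not pass, such as HOXA9 and BECN1, and the share over all genes tested is not given here. Most changes were small, the median size of the log2 fold change among called genes being 0.51. By more than 1 on the log2 scale 288 were higher and 65 lower, and 46 and 23 of these had a mean of 5 CPM or more. Without replicate 1 the count was 6512 genes (34.9%), 3214 higher (17.2%) and 3298 lower (17.7%), and 2161 of the 2186 were among them in the same direction. After the correction it was 5220 (28.9%), 2784 higher (15.4%) and 2436 lower (13.5%), with 2083 of the 2186 among them in the same direction. No gene went from at most 3 counts over all controls to at least 30 in each knock-down library, and none went the other way.

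**Figure D2:**
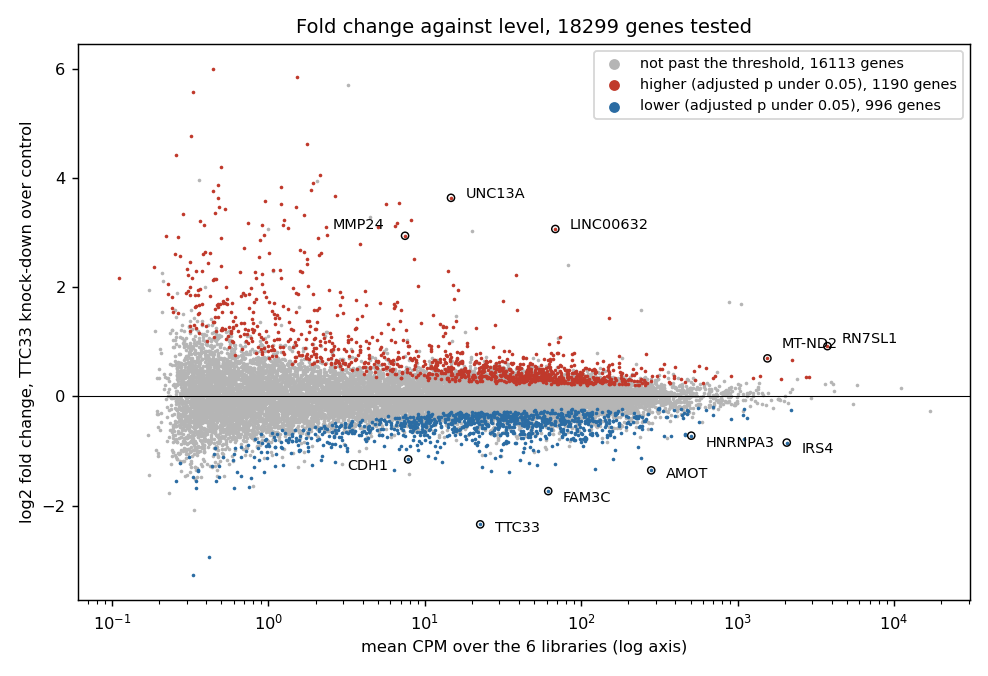
Log2 fold change of the TTC33 knock-down over control (y axis) against mean CPM over the 6 libraries on a log axis (x axis), 1 point per gene, with genes past an adjusted p of 0.05 in red (1190 higher) or blue (996 lower). Of the 288 genes that rose by more than 1, 46 have 5 CPM or more, and TTC33 has the largest fall of the called genes at that level.

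The genes that fell most are shown first with the short sequence that several of them share. The 7-base sequence AGCTATA was selected in earlier work on these same libraries, and 4 sequences were looked at here, so its presence is a description and supports nothing by itself. Of the 20 genes with the largest fall at 5 CPM or more, FAM3C, MDFIC, IL6ST and SIKE1 held 2 copies in the longest annotated 3′ UTR and TMEM19, EIF1AX and TTC39B held 1. The other 13 held none, among them TTC33, of whose 7 annotated transcripts none contains the sequence. The sequence of the microRNA is not given in the sources used here. The sites below are from GENCODE transcripts on GRCh38, 5′ to 3′ on the strand of the mRNA, with the shared 7 bases in capitals.
FAM3C, first site, chr7:121350394-121350420, minus strand: ttaatgggagAGCTATAaatggcagag
FAM3C, second site, chr7:121349489-121349515, minus strand: tattgcccgaAGCTATAgtggcatatt
TMEM19, chr12:71701234-71701260, plus strand: tgagcaatgaAGCTATAttgtccctac
MDFIC, first site, chr7:115017185-115017211, plus strand: tttttgaaaaAGCTATAaagtttaaat
IL6ST, first site, chr5:55940705-55940731, minus strand: tagtgagcacAGCTATActgattttga
SIKE1, first site, chr1:114773262-114773288, minus strand: tttttgtttaAGCTATAtaaaaaggtg
Over all 13631 tested coding genes with a 3′ UTR, 864 were lower (6.34%). With 1 copy 197 of 1152 were lower, with 2 or more copies 36 of 149, and with none 631 of 12330. The leave-one-out ranges were 62 to 529, 11 to 89 and 146 to 2219, and the corrected counts 344, 60 and 1739. Their median log2 fold changes were -0.16, -0.28 and 0.04, and after the correction -0.07, -0.13 and 0.03. The medians for 1 copy were -0.02, -0.22 and -0.22 in replicates 1, 2 and 3, and those for 2 or more copies -0.02, -0.33 and -0.34, so replicate 1 showed little of this. The median GC content was 43.3% with 1 copy, 40.9% with 2 or more and 50.5% with none, and its part in the difference was not tested.

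FAM3C encodes a secreted cytokine-like protein. It stood at 95.2, 94.4 and 94.3 CPM in the controls and at 32.3, 26.0 and 27.0 CPM in the knock-down, a log2 fold change of -1.73 ± 0.11 (edgeR adjusted p = 5.05e-06). The membrane protein gene TMEM19 went from 49.8, 49.6 and 49.8 to 22.5, 17.9 and 16.6 CPM (-1.39 ± 0.11). IL6ST encodes gp130, the signalling receptor shared by the interleukin 6 family, and went from 169, 177 and 182 to 87.8, 62.2 and 59.4 CPM (-1.33 ± 0.15). In all 3 genes the groups were far apart and replicate 1 was the least lowered. ELK3, a transcription factor of the ETS family, fell to 40.7% of control and SIKE1, a suppressor of the kinase IKK epsilon, to 42.2%. FAM3C, TMEM19, IL6ST, ELK3 and SIKE1 had smaller falls after the correction, at -1.45, -1.28, -1.06, -1.19 and -0.95. Each was also lower than in the CCDC97 knock-down, by 1.75, 1.39, 1.75, 1.42 and 1.23 on the log2 scale in the direct contrast, in which 21.5% of all genes passed (11.3% higher and 10.2% lower).

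AMOT, which encodes angiomotin, a junction scaffold that binds YAP, lacked the sequence and fell with little spread. Its controls were at 406, 404 and 399 CPM and its knock-down libraries at 168, 155 and 150 CPM, 39.1% of control (-1.35 ± 0.07; adjusted p = 1.33e-06). The value was -1.33 after the correction. In the CCDC97 knock-down, which was set against the same controls, AMOT had -1.27 ± 0.07. The direct contrast gave -0.09 ± 0.07 (adjusted p = 0.39), so no difference between the knock-downs was detected for this gene. CDH1, the epithelial cadherin, went from 12.3, 9.77 and 10.4 to 5.85, 4.33 and 4.36 CPM (-1.15 ± 0.14), and the muscle structural gene MYOM2 fell to 44.7% of control. Other genes among the 20 were ZNF853, ARRDC4, GK, TMEM87B, TTC39B and GALNT3, between 39.3% and 47.2% of control. TMEM106B, COMMD8 and SGPP1 passed in 4, 8 and 2 of the 9 fits, and in TMEM106B and SGPP1 replicate 1, at 46.0 and 29.3 CPM, lay nearer to the controls than to the other knock-down libraries. GK and EIF1AX have close copies elsewhere in the genome that can take their reads.

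**Figure D3:**
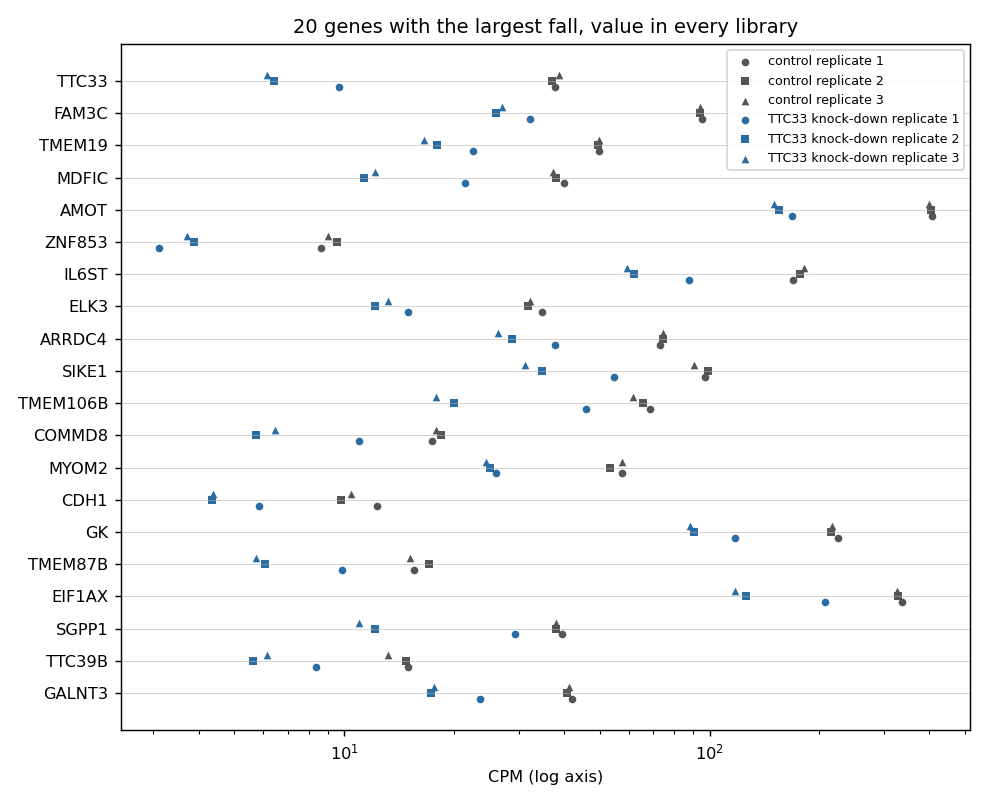
CPM on a log axis (x axis) of the 20 genes with the largest fall at 5 CPM or more (y axis) in each control library (grey) and each TTC33 knock-down library (blue), with a marker per replicate. The groups do not overlap in any of the 20 genes, as the rule that chose them required. In 19 of them knock-down replicate 1 is the highest of its group, ZNF853 being the exception.

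Abundant genes that fell included signalling and RNA-binding proteins. IRS4, an insulin receptor substrate that HEK293 cells make in large amounts, went from 2688, 2673 and 2588 to 1684, 1388 and 1352 CPM (-0.85 ± 0.08; adjusted p = 0.000145). ZNF711, an X-linked zinc finger gene, went from 1412, 1401 and 1386 to 1023, 732 and 684 CPM (-0.78 ± 0.13). HNRNPA3, an RNA-binding protein of the hnRNP family with processed copies in the genome, went from 642, 635 and 609 to 431, 365 and 349 CPM (-0.72 ± 0.10). In each the highest knock-down library lay well below the lowest control. SESN3, a stress-induced inhibitor of mTORC1 signalling, fell to 50.6% of control, the sphingolipid desaturase gene DEGS1 to 58.3%, and NETO2, an auxiliary subunit of kainate receptors, to 58.8%. The linker histone genes H1-3 and H1-2 fell by 0.67 and 0.41 on the log2 scale. After the correction IRS4, ZNF711, HNRNPA3, SESN3 and H1-3 had -0.95, -0.52, -0.65, -0.75 and -0.75. IRS4 shares 356 exon bases with a gene on the other strand, and the strand setting of the counting is not given in the sources used here.

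Large rises included genes known from neurons. Of the 39 neuronal genes tested, 24 were higher and 1, NEFL, lower (in 6 of the 9 fits; corrected 29 and 1, leave-one-out 20 to 27 and 0 to 2), and the list's median was 0.97 against a median of 0.00 over all genes tested. Beyond that list, the long non-coding RNA LINC00632, whose locus also gives rise to the circular RNA CDR1as, went from 14.4, 13.6 and 15.8 to 112, 116 and 137 CPM (3.07 ± 0.10; adjusted p = 6.24e-08), with every knock-down library far above every control. The counts do not separate linear from circular RNA. The immunoglobulin-superfamily adhesion gene LSAMP went from 0.88, 1.03 and 0.76 to 12.4, 9.50 and 9.22 CPM (3.53 ± 0.17). NECTIN3, which encodes a nectin of cell junctions, went from 1.13, 1.31 and 0.67 to 11.6, 7.94 and 7.46 CPM (3.10 ± 0.24). MMP24, a membrane-anchored metalloproteinase, stood at 1.44 to 1.90 CPM in controls and at 12.1 to 14.4 CPM in the knock-down (2.94 ± 0.15), and shares 799 exon bases with MMP24OS on the other strand. PAX5, a transcription factor of the B cell lineage, varied little, at 3.10, 2.97 and 2.98 against 9.70, 9.85 and 9.64 CPM (1.69 ± 0.10; adjusted p = 3.05e-06). NMNAT2, an NAD-synthesising enzyme of axons, rose 4.92-fold and AP3B2, a subunit of the neuronal AP-3 adaptor, 3.88-fold. LSAMP, NECTIN3, MMP24, PAX5, NMNAT2 and AP3B2 were also higher than in the CCDC97 knock-down, with a direct contrast of 0.86 to 2.54. BCYRN1, a short non-coding RNA, had 3.95 CPM in replicate 1, close to the controls at 3.32 to 3.81 CPM, and 22.3 and 17.6 CPM in replicates 2 and 3. Its call was lost in 5 of the 9 fits.

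Among genes above 100 CPM the rises were smaller. RN7SL1, the RNA of the signal recognition particle, stood at 2724, 2443 and 2614 CPM in the controls and at 3790, 4970 and 5970 CPM in the knock-down, and its near-identical copy RN7SL3 rose 2.69-fold. Reads of the 2 copies cannot be told apart with confidence, and the call of RN7SL1 was lost in 5 of 9 fits. LPCAT1, which remodels phosphatidylcholine, went from 130, 132 and 128 to 198, 228 and 230 CPM (0.75 ± 0.09; adjusted p = 0.000535). The guidance ligand gene SLIT2 went from 454, 457 and 463 to 648, 683 and 698 CPM (0.56 ± 0.06). In LPCAT1 and SLIT2 all 3 knock-down libraries were close to each other and above every control, with no overlap. UBE2S, ZNF703, PPP6R1, ATN1, SCAF1 and TRIR also passed, with replicate 1 the lowest of the knock-down libraries in each, and kept the call in only 2 to 4 of the 9 fits.

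Autophagy and lysosome genes changed mostly upwards. Of 54 tested, 17 rose (31.5%) and 3 fell (5.56%), with a median of 0.13. The leave-one-out ranges were 7 to 22 higher and 1 to 5 lower, and the corrected counts 26 and 5, with a median of 0.17. CTSA, the protective protein of lysosomal sialidase and galactosidase, went from 31.5, 30.1 and 34.5 to 45.6, 53.05 and 59.1 CPM (0.71 ± 0.11). NEU1, the lysosomal sialidase itself, went from 43.7, 43.8 and 46.0 to 63.2, 74.1 and 76.8 CPM (0.68 ± 0.08; adjusted p = 0.000753). The membrane protein gene LAMP1 went from 100.4, 99.2 and 100.3 to 132, 140 and 153 CPM (0.50 ± 0.08). No knock-down library of these 3 genes reached down to a control. SQSTM1, the autophagy receptor p62, rose to 150.1% of control, ATP6V0D1, a subunit of the proton pump, to 150.2%, WIPI2, a factor of autophagosome formation, 1.4-fold and GABARAPL1, which is coupled to the autophagosome membrane, 1.34-fold. Against them ULK2, a kinase that starts autophagy, fell from 17.5, 17.8 and 17.5 to 11.3, 10.1 and 10.9 CPM (-0.71 ± 0.08). In the CCDC97 knock-down, against the same controls, ULK2 had -0.77 ± 0.08. The direct contrast was 0.06 ± 0.08 (edgeR adjusted p = 0.615), so no difference between the knock-downs was detected for ULK2. TFEB, a master regulator of lysosome genes, did not pass at a log2 fold change of -0.08 ± 0.18 (adjusted p = 0.807), and its relative TFE3 passed at 0.37 ± 0.10 but in only 3 of 9 fits. SQSTM1 shares 1582 exon bases with MRNIP and CTSA 1038 with NEURL2 on the other strand.

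Many lysosome genes carry an E-box, the sequence bound by TFEB and its relatives, so the RefSeq promoters (300 bases around the start, GRCh38.p14) were searched on both strands for TCACGTG. The form of the motif and the list were chosen after values were seen, among 3 forms and 4 lists, so the counts are a description only. Of all 35116 promoters 3.71% held it, and of the 11883 tested genes with a promoter 6.97%. Of 54 tested list members 44 had a promoter in the table and 9 of these held the motif: 6 that rose (CTSA, NEU1, MCOLN1, CTSD, ATP6V0D1 and LAMP1) and 3 that did not pass (ATG14, ATG3 and GAA). Of the other 35 members 9 rose and 3 fell. After the correction 7 of the 9 with the motif were higher and 1, GAA, lower (-0.38). Of the 35 without it 16 were then higher and 4 lower. Over all tested genes with a promoter, 91 of 828 with the motif were higher and 41 lower, against 803 and 707 of 11055 without it. The corrected counts were 196 and 101 with the motif and 1977 and 1735 without it. The site nearest to the start is shown for the 6, 5′ to 3′ on the gene's strand, with the motif in capitals; where the match extends to both strands 8 bases are in capitals.
CTSA, chr20:45891298-45891327, plus strand: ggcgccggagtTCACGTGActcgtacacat
NEU1, chr6:31862930-31862959, minus strand: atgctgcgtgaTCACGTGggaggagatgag
MCOLN1, chr19:7522598-7522627, plus strand: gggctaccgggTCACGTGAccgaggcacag
CTSD, chr11:1763957-1763986, minus strand: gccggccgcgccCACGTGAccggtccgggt
ATP6V0D1, chr16:67481199-67481228, minus strand: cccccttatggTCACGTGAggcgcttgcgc
LAMP1, chr13:113297226-113297255, plus strand: cgcggcgcagcTCACGTGAcaagcgctgcc
LAMP1 held 6 such sites in its 300 bases, CTSA and MCOLN1 2 each and the others 1. The sites shown lie within 123 bases of the start. MCOLN1, a calcium channel of lysosomes, and the protease gene CTSD kept their calls in only 2 and 4 of the 9 fits.

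**Figure D4:**
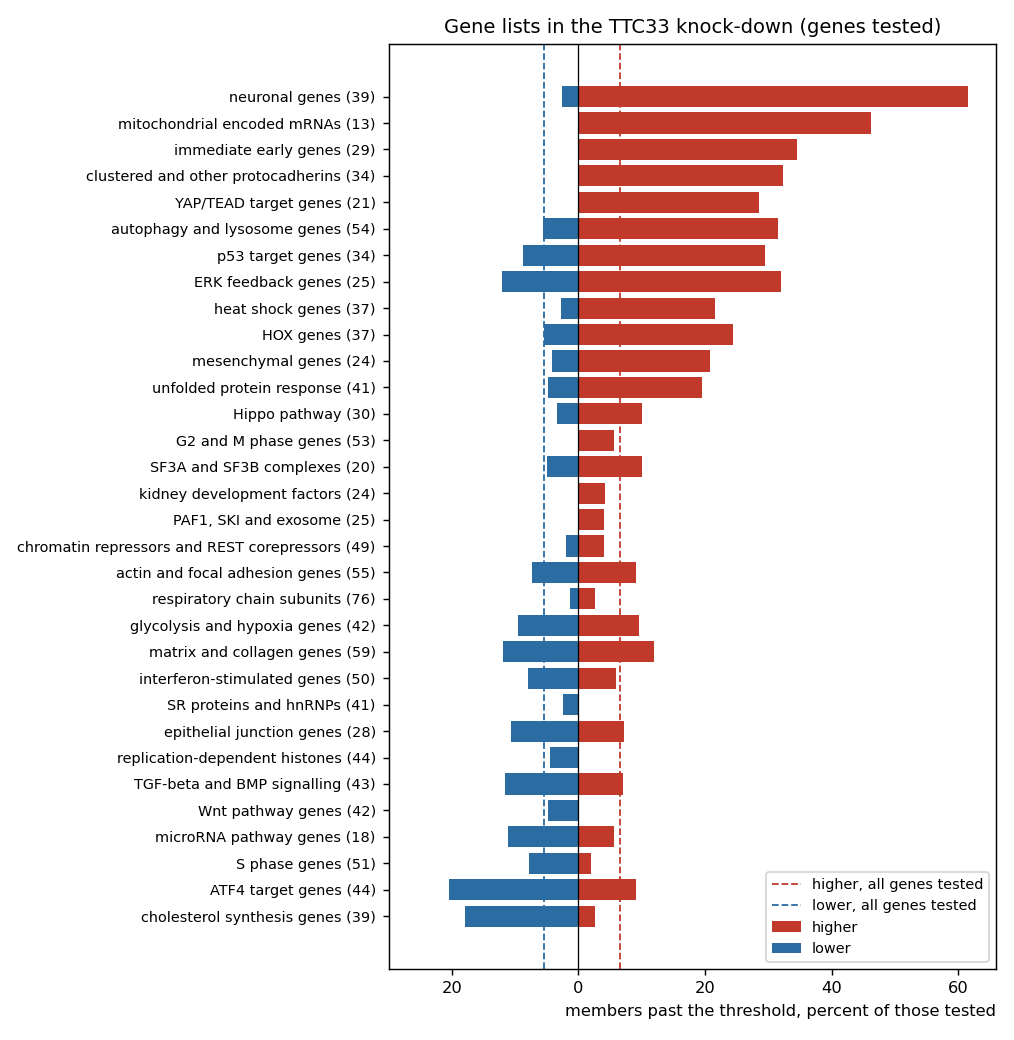
Percent of the tested members of each gene list (y axis, number tested in brackets) that passed the threshold lower (blue, to the left) or higher (red, to the right) in the TTC33 knock-down. Dashed lines give the same for all genes tested (6.5% higher and 5.44% lower), and neuronal, mitochondrial and immediate early lists extend furthest to the right.

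The Hippo pathway restrains the coactivators YAP and TAZ, which act with TEAD factors. Of its 30 genes tested 3 were higher and 1, AMOT, lower (corrected 7 and 3, leave-one-out 0 to 8 and 1 to 7). AMOTL2 went from 11.3, 10.2 and 10.8 to 14.7, 16.7 and 18.3 CPM (0.62 ± 0.12; in 7 of the 9 fits) and the other angiomotin relative AMOTL1 passed at 0.21 ± 0.06 in 3 of them. The genes for YAP1, its paralog WWTR1 and the kinase LATS1 did not pass, with log2 fold changes of -0.12, -0.11 and -0.13. Without replicate 1 they had -0.30, -0.21 and -0.24, and YAP1 then passed (edgeR adjusted p = 0.0174). After the correction they had -0.04, 0.04 and 0.04, and none of them passed. Of 21 target genes of YAP and TEAD 6 rose (28.6%) and none fell (corrected 9 and 2, leave-one-out 2 to 9 and 0 to 3). The matrix-associated CCN2 went from 1.96, 2.01 and 2.41 to 3.92, 3.71 and 5.47 CPM (1.03 ± 0.18) and CCN1 from 15.2, 14.9 and 13.98 to 19.8, 21.8 and 20.9 CPM (0.50 ± 0.09). The groups did not overlap in either gene. Direct contrasts of CCN2 and CCN1 with the CCDC97 knock-down were 0.003 and 0.22, neither past the threshold. AMOTL2 is counted in the pathway list and in the target list. The median of the targets was 0.10 (0.13 corrected), so most of them differed little.

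Immediate early genes, which respond to growth signals within minutes, had 10 of 29 higher (34.5%) and none lower, with a median of 0.35 (corrected 15 and 1, leave-one-out 5 to 18 and 0 to 2). EGR1 went from 7.49, 6.803 and 6.98 to 15.7, 16.9 and 20.9 CPM (1.33 ± 0.14; adjusted p = 0.000342) and FOSB from 2.27, 2.15 and 2.00 to 4.66, 5.44 and 5.32 CPM (1.26 ± 0.16). SGK1, a kinase of salt and stress responses, rose by 0.71 ± 0.13. JUNB and JUND had about 2-fold means but 16.9 and 64.3 CPM in replicate 1 against 28.5 to 28.7 and 109 to 111 in the other 2, and kept their calls in 4 of 9 fits. Among 25 genes listed under ERK feedback, not all of them inhibitors of the pathway, 8 rose and 3 fell (corrected 11 and 5, leave-one-out 1 to 12 and 1 to 5). The phosphatase gene DUSP6 went from 11.7, 10.7 and 11.2 to 16.5, 15.2 and 15.6 CPM (0.50 ± 0.10; in 6 of the 9 fits), the receptor kinase gene EPHA4 rose by 0.43 ± 0.07, and CCND1, which encodes cyclin D1, went from 148, 149 and 144 to 104, 109 and 110 CPM (-0.45 ± 0.07). The direction thus differed between members of the list, as CCND1 fell while DUSP6 rose.

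Targets of p53 moved both ways. Of 34 tested 10 rose and 3 fell (corrected 16 and 5, leave-one-out 4 to 14 and 1 to 7). The cell cycle inhibitor gene CDKN1A went from 32.7, 31.8 and 36.1 to 48.6, 52.4 and 51.7 CPM (0.60 ± 0.09), the kinase gene PLK2 rose by 0.65 ± 0.08 and the decoy receptor gene TNFRSF10D by 0.52 ± 0.07. SESN1, a sestrin like SESN3, went from 58.6, 56.7 and 58.7 to 43.3, 36.9 and 37.4 CPM (-0.57 ± 0.10). MDM2, the ubiquitin ligase of p53, and PMAIP1, an apoptosis inducer, passed lower at -0.54 and -0.56, in 5 and 3 of 9 fits. CDKN1A and PLK2 had 0.55 and 0.70 in the CCDC97 knock-down, against the same controls, and their direct contrasts were 0.05 ± 0.09 and -0.05 ± 0.08 (adjusted p of 0.7 and 0.65).

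Targets of ATF4, the transcription factor of the integrated stress response, had 9 of 44 lower (20.5%) and 4 higher. The corrected counts were 19 lower and 6 higher, and the leave-one-out ranges 3 to 13 lower and 1 to 8 higher. DDIT4, an inhibitor of mTORC1, went from 58.7, 59.4 and 59.7 to 36.7, 39.3 and 36.3 CPM (-0.66 ± 0.08) and PSAT1, of serine synthesis, from 171, 166 and 166 to 134, 108 and 101 CPM (-0.56 ± 0.10). ALDH1L2, a mitochondrial folate enzyme, fell to 61.0% of control. PPP1R15A, whose product ends the response by dephosphorylating eIF2, went the other way, from 22.3, 22.4 and 24.3 to 36.5, 40.5 and 45.3 CPM (0.82 ± 0.10). In the unfolded protein response 8 of 41 genes rose and 2 fell (corrected 16 and 5, leave-one-out 1 to 12 and 0 to 7). MANF, a secreted protein of the endoplasmic reticulum, went from 39.9, 40.4 and 37.0 to 48.4, 59.5 and 58.7 CPM (0.51 ± 0.09), and the chaperone gene CALR rose by 0.38 ± 0.07 (in 6 of the 9 fits). Heat shock genes had 8 of 37 higher and 1 lower (corrected 18 and 1, leave-one-out 1 to 15 and 1 to 6), among them the small heat shock protein gene HSPB8, from 1.08, 0.93 and 1.01 to 4.72, 2.88 and 4.09 CPM (1.95 ± 0.22).

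Cholesterol synthesis genes had 7 of 39 lower (17.9%) and 1 higher (corrected 13 and 3). The leave-one-out ranges were 1 to 11 lower and 1 to 7 higher. INSIG1, which holds the pathway's transcription factors back, went from 223, 220 and 217 to 159, 132 and 125 CPM (-0.66 ± 0.09), and the synthase gene HMGCS1 passed at -0.47 ± 0.10 in 4 of 9 fits. Of 42 glycolysis and hypoxia genes 4 rose and 4 fell (corrected 6 and 16, leave-one-out 0 to 7 and 2 to 10), with PDK1, a kinase that shuts pyruvate dehydrogenase, from 56.0, 50.8 and 49.2 to 38.5, 30.8 and 27.4 CPM (-0.69 ± 0.12). Nuclear-encoded respiratory chain subunits had 2 of 76 higher and 1 lower (corrected 16 and 5, leave-one-out 0 to 15 and 0 to 8). Of the 13 mitochondrially encoded mRNAs 6 rose and none fell, with a median of 0.36. The corrected count was 10 higher and the leave-one-out range 2 to 8 higher, with none lower in either. MT-ND1, a subunit of complex I, went from 1648, 1700 and 1846 to 2334, 2624 and 3308 CPM (0.67 ± 0.11). The mitochondrial share of gene counts was 3.44% to 3.81% in controls and 3.98% to 5.04% in the knock-down libraries, and whether it reflects cells or libraries was not tested. Direct contrasts of MT-ND1 and MT-ND2 with the CCDC97 knock-down were 0.05 and 0.17, neither past the threshold.

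Lists of cell shape, matrix and signalling genes are read against the 6.5% higher and 5.44% lower over all genes tested. Matrix genes had 11.9% each way, and mesenchymal genes 20.8% higher and 4.17% lower. Nearer to the shares over all genes were epithelial junction genes (7.14% and 10.7%) and actin and focal adhesion genes (9.09% and 7.27%). TGF-beta and BMP genes had 6.98% and 11.6%, and Wnt genes 0% and 4.76%. Of 59 matrix genes 7 rose and 7 fell (corrected 7 and 24, leave-one-out 3 to 9 and 1 to 13). COL12A1, a fibril-associated collagen, went from 7.68, 7.73 and 7.20 to 15.2, 15.3 and 12.4 CPM (0.92 ± 0.12) and the laminin gene LAMA1 from 83.7, 83.0 and 84.7 to 65.0, 61.5 and 60.9 CPM (-0.42 ± 0.08). Epithelial junction genes had 2 of 28 higher and 3 lower (corrected 3 and 7, leave-one-out 0 to 5 and 1 to 5). Mesenchymal genes had 5 of 24 higher and 1 lower (corrected 6 and 1, leave-one-out 0 to 8 and 0 to 3). The intermediate filament gene VIM passed at 0.34 ± 0.07 in 4 of 9 fits. Of 55 actin and focal adhesion genes 5 rose and 4 fell (corrected 12 and 9, leave-one-out 0 to 18 and 2 to 12). EZR, which ties actin to the membrane, went from 183, 178 and 182 to 97.8, 118 and 119 CPM (-0.70 ± 0.08), with replicate 1 the lowest, and the focal adhesion kinase gene PTK2 fell by 0.48 on the log2 scale. Among 43 genes of TGF-beta and BMP signalling 3 rose and 5 fell (corrected 7 and 11, leave-one-out 1 to 7 and 1 to 13). The co-receptor gene TGFBR3 went from 70.0, 70.2 and 72.4 to 41.0, 33.3 and 32.4 CPM (-0.99 ± 0.10), while the ligand gene BMP2 went from 0.72, 0.63 and 0.54 to 2.63, 2.22 and 2.22 CPM (1.90 ± 0.20). In the Wnt list 2 of 42 fell and none rose (corrected 6 and 3, leave-one-out 1 to 7 and 0 to 6), with the secreted Wnt inhibitor SFRP1 from 34.1, 30.9 and 33.2 to 16.9, 13.8 and 15.9 CPM (-1.07 ± 0.10).

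Protocadherins, adhesion proteins whose clustered genes share exons and reads, had 11 of 34 higher and none lower (corrected 12 and 1, leave-one-out 6 to 13 and 0 to 1). PCDH10 went from 0.36, 0.57 and 0.63 to 2.73, 2.98 and 3.25 CPM (2.52 ± 0.21). HOX genes had 9 of 37 higher and 2 lower (corrected 14 and 2, leave-one-out 1 to 19 and 0 to 2). HOXC11, a posterior HOX gene, went from 7.71, 7.95 and 8.31 to 11.3, 12.3 and 12.5 CPM (0.59 ± 0.09) and was lower than in the CCDC97 knock-down by 0.97 ± 0.08 on the log2 scale. HOXC11 was the only HOX gene that kept its call in all 9 fits, and the other 10 kept it in 2 to 6, as in HOXB6 with 42.2, 57.2 and 61.3 CPM against 36.5 to 38.8 CPM. Interferon-stimulated genes had 3 of 50 higher and 4 lower (corrected 6 and 7, leave-one-out 3 to 10 and 1 to 8), near the shares over all genes. IFI16, a sensor of DNA, went from 0.25, 0.11 and 0.06 to 1.80, 1.80 and 1.64 CPM (3.57 ± 0.31) and was higher than in the CCDC97 knock-down by 3.90 ± 0.35.

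Counts of the RNA processing and chromatin lists are read against the 6.5% higher and 5.44% lower over all genes. For the corrected counts those shares were 15.4% and 13.5%, and in the fit without replicate 1 they were 17.2% and 17.7%. Of 20 genes of the SF3A and SF3B list 2 rose and 1, U2AF1, fell (in 5 of 9 fits), which is 10% and 5% (corrected 5 and 1, leave-one-out 0 to 6 and 0 to 2). SF3B4 and SUGP1 passed at 0.42 each, in 2 and 3 of 9 fits. Of 25 genes of PAF1, SKI and the exosome 1 rose, PAF1 at 0.40 ± 0.10 in 4 of 9 fits, and none fell (corrected 5 and 2, leave-one-out 0 to 3 and 0 to 4). Of 41 SR and hnRNP genes HNRNPA3 alone passed, lower (corrected 3 higher and 10 lower, leave-one-out 0 to 1 and 1 to 16). Among 49 chromatin repressor genes 2 rose and 1 fell (corrected 7 and 8, leave-one-out 0 to 16 and 1 to 11). The latter, REST, a repressor of neuronal genes, went from 97.3, 97.6 and 95.7 to 70.9, 53.2 and 55.6 CPM (-0.69 ± 0.12; adjusted p = 0.00601) and passed in all 9 fits. Among 18 microRNA pathway genes the Argonaute genes AGO4 and AGO1 passed lower at -0.41 and -0.32 (the latter in 6 of 9 fits) and TNRC6A higher at 0.22 (in 2). The corrected counts of that list were 6 higher and 4 lower, and the leave-one-out ranges 0 to 4 and 1 to 4. S phase genes had 1 of 51 higher and 4 lower (corrected 9 and 6, leave-one-out 0 to 12 and 2 to 9). G2 and M phase genes had 3 of 53 higher and none lower (corrected 21 and 2, leave-one-out 0 to 12 and 0 to 11). Of 44 histone genes H1-3 and H1-2 passed, both lower (corrected 1 higher and 13 lower, leave-one-out 0 to 7 and 2 to 4). None of the 84 genes for cytosolic ribosomal proteins passed, with a median of 0.07 (corrected 13 higher and 4 lower, leave-one-out 0 to 20 and 0 to 1).

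By kind of gene, coding genes had 1098 of 13722 higher and 869 lower (corrected 2612 and 2152), and long non-coding RNAs 60 of 3035 higher and 104 lower (corrected 102 and 211). Zinc finger genes named ZNF had 17 of 460 higher and 24 lower, with a median of -0.01, but corrected counts of 99 higher and 40 lower, with a median of 0.06 (leave-one-out 2 to 64 and 5 to 98). Potassium channel genes named KCN had 10 of 49 higher and 1 lower (corrected 12 and 11, leave-one-out 6 to 14 and 0 to 7). Coding genes with 2 or 3 exons had 158 of 1485 higher (10.6%) and 71 lower (4.78%). Those with 16 to 30 exons had 192 of 2672 higher (7.19%) and 154 lower (5.76%). The corrected counts were 320 and 180 of the former and 575 and 423 of the latter, with corrected medians of 0.04 and 0.02. Calls were fewer among genes under 1 CPM, with 156 of 3671 higher and 46 lower, where low counts limit what can be detected.

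Along the genome, chromosome 21 stood lowest. Of its 221 genes tested 38 were lower (17.2%) and 6 higher (2.71%), with a median of -0.20 that stayed at -0.19 after the correction. The corrected counts were 82 lower and 12 higher, and the leave-one-out ranges 12 to 66 lower and 1 to 14 higher. The per-library medians were -0.21, -0.17 and -0.19, so here replicate 1 was like the other 2. Chromosome 18, the next lowest, had -0.16, and -0.10 after the correction. Chromosome 19 was highest of the nuclear chromosomes, at 0.18 and 0.08. Attention to chromosome 21 and the split into windows came after these values were seen. Of 225 windows of 10 Mb with at least 20 genes of 5 CPM or more, the 2 with the lowest corrected medians were those from 30 to 40 and from 40 to 50 Mb on chromosome 21, with 18 of 44 and 11 of 45 genes lower and none higher (corrected 30 and 35 lower and 1 higher in each, leave-one-out 7 to 24 and 3 to 16 lower, with 24 and 14 without replicate 1). Over all 11542 genes tested with 5 CPM or more, 823 were lower (7.13%) and 833 higher (7.22%). For these genes the corrected counts were 2050 lower and 2298 higher, and without replicate 1 they were 2774 and 2498. The window counts are to be read against these. PSMG1, a chaperone of proteasome assembly, went from 125, 127 and 124 to 90.7, 79.2 and 76.0 CPM (-0.61 ± 0.08). BACE2, a protease related to beta-secretase, went from 84.0, 88.1 and 89.2 to 61.0, 58.6 and 55.6 CPM (-0.58 ± 0.07). HMGN1, a nucleosome-binding protein, went from 497, 494 and 489 to 387, 393 and 388 CPM (-0.34 ± 0.06), and GART, of purine synthesis, to 78.2% of control. The splicing factor gene U2AF1, which has a near-identical copy, had 6.49, 6.69 and 6.40 against 4.92, 4.47 and 4.71 CPM (-0.47 ± 0.10). In each of these 5 genes the groups did not overlap, and the level was between 65.6% (PSMG1) and 79.0% (HMGN1) of control. All but U2AF1 kept the call in all 9 fits. Other lower genes of the chromosome kept theirs in fewer, among them APP and TTC3 in 4 each and MCM3AP in 3. The CCDC97 knock-down libraries, set against the same controls, had medians of -0.40, -0.47 and -0.45 on chromosome 21. No file gives copy number, so a difference between the lines in the copies of this chromosome and a change in expression cannot be told apart.

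**Figure D5:**
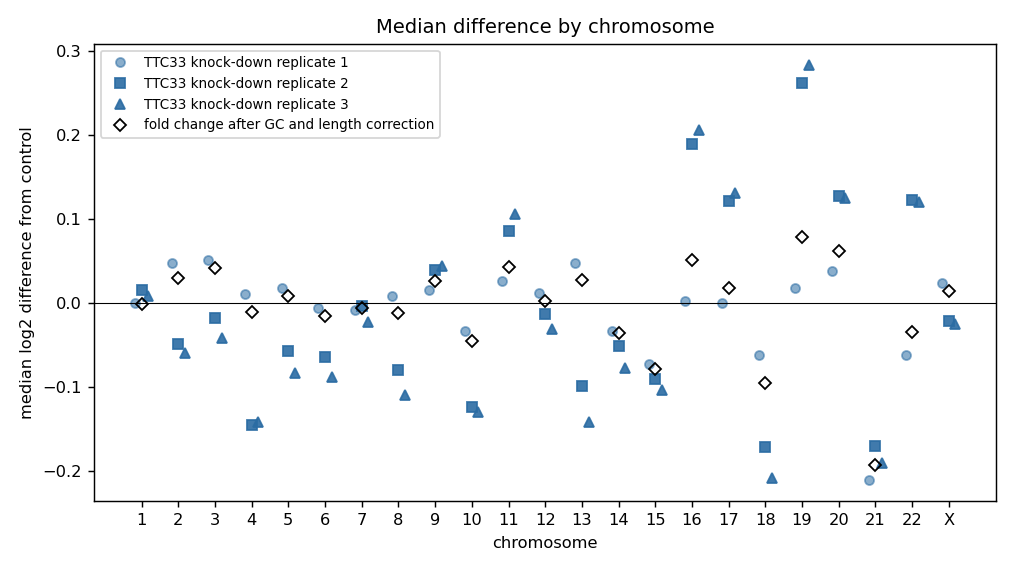
Median log2 difference from the mean of the controls (y axis) over the tested genes of each nuclear chromosome (x axis), in each TTC33 knock-down library (blue) and for the fold change after the correction for GC content and length (open diamonds). On chromosome 21 the 3 libraries and the corrected value lie between -0.21 and -0.17, whereas on chromosomes 16, 17, 19 and 22 replicates 2 and 3 lie well above replicate 1.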

How the data were processed

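Total RNA of 9 libraries was sequenced, and 6 are compared here. Raw gene counts as deposited by the authors were used. According to the submitters' processing notes, Trimmomatic 0.39, HISAT2 and HTSeq 2.0.1 were used with the build GRCh38; the sources used here give neither annotation release nor strand setting. Each library has a table marked R12, used here, and a smaller one marked U of unstated meaning. Rows that name no gene held 34.4% to 50.3% of the R12 counts of the 6 libraries and were left out.

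Genes kept by filterByExpr were fitted with edgeR 4.0.16 in R 4.3.3 (quasi-likelihood test, TMM factors, a term per group, all 9 libraries, 6 residual degrees of freedom), with two-sided Benjamini-Hochberg adjusted p over all 18299 genes and a threshold of 0.05. Standard errors were derived from the fold change and F statistic. CPM is per 1e6 TMM-scaled counts, while sums over marker lists are per 1e6 gene counts without TMM factors. The correction uses mgcv 1.9.3 trends on GC content and length from GENCODE on GRCh38 (98.6% of genes tested). DESeq2 1.42.0, other scalings and filters, a replicate block and leaving out each library were alternatives. On simulated data for this comparison (17890 genes) all 50 genes changed by 1.5 and 52% and 48% of those changed by -0.5 and 0.5 (log2) were called. The simulated libraries had no trend on GC content and none that stood apart, and the changed genes had expected counts above 50. These rates therefore do not carry over to the real libraries or to genes with low counts.

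The members, lists and alternatives were chosen with earlier results of these data known. Named genes are the network, the 20 each way with the largest change at 5 CPM or more and groups apart, the 15 each way at 100 CPM or more, and up to 5 called members per list. NEFL, JUNB, JUND, HOXB6, MDM2, PMAIP1, YAP1, WWTR1, LATS1, TFEB, TFE3, ATP6V0D1, LAMP1, GABARAPL1, CTSD, MCOLN1, ATG14, ATG3, GAA, PSMG1, BACE2, HMGN1 and GART fall outside this rule and were chosen after their values were seen. Counts in lists use the adjustment over all genes, with no test of a list. One gene that the rule names is not reported here.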

Additional observations from a re-analysis of the deposited data

Results flagged for a closer look

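Reads outside the gene counts differed between the groups. Rows that name no gene took 45.1%, 45.3% and 50.3% of the counts in the TTC33 knock-down libraries (mean 46.9%) and 34.4% to 41.6% in the controls. Reads with several alignments took 21.8%, 22.1% and 29.03% (mean 24.3%) against 8.76% to 18.2%. Reads that did not align took 2.04%, 2.84% and 2.69% (mean 2.52%) against 1.75% to 1.96%. In each of the 3 measures all knock-down libraries lay above all controls, and their part in the gene results was not tested.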

How the results depend on the processing

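The count of genes past the threshold (2186; 1190 higher and 996 lower) depended on the libraries and on the setting. It was 552 to 6512 when 1 library was left out, with 311 to 3214 higher and 241 to 3298 lower. The lowest totals were 552, 570 and 686 without control replicate 1, 2 and 3, and 650 and 700 without TTC33 knock-down replicate 2 and 3, while leaving out TTC33 knock-down replicate 1 gave 6512. The correction for GC content and length gave 5220 (2784 and 2436). Together with leaving out TTC33 knock-down replicate 1, an alternative added after seeing the data, it gave 6512 (3521 and 2991). Without a filter on low counts 3821 passed, 2077 of them lower. DESeq2 called 3021 and other scalings 2185 and 2207. With the replicate number as a block 756 passed, 434 higher and 322 lower, and TTC33 had -2.34. Same-numbered control and knock-down libraries had correlated deviations of 0.16, 0.10 and 0.17, of which that of replicate 2 was under 0.1 before rounding. The numbers were therefore not taken to pair the samples, although each knock-down library correlated best with its own number. The labels do not say whether samples were paired, and the main fit would ignore such a pairing. TTC33 kept its direction and call in all alternatives, from -2.59 to -1.92. Of the 187 called genes named by rule, none changed direction in the alternatives that tested it (all 187 in 18 of them, and the 163 that passed the filter on a mean of at least 5 CPM in the other), 101 kept the call in all 9 fits that left out a library, and 184 kept it after the correction. Under the replicate block 118 of the 187 kept the call and 69 did not. Low counts limit calls below 1 CPM.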
